A study of Mus musculus with 4 samples.

Results

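The genes described here are the 10 members of the MHC class II presentation machinery of the mouse that were followed through the series: *H2-Aa*, *H2-Ab1* and *H2-Eb1*, which encode chains of the classical class II molecules, *Cd74*, the invariant chain, *H2-DMa*, *H2-DMb1* and *H2-DMb2*, the chains of H2-DM, *H2-Oa* and *H2-Ob*, the chains of H2-DO, and *Ciita*, the class II transactivator. They were chosen by name, and all 10 were found among the 30406 genes listed in all matrices. The study sequenced single cells from popliteal lymphatic vessels (PLVs) and the neighbouring superficial saphenous veins (SSVs) of the mouse hind limb in 4 libraries, each from 3 pooled mice of a C57BL/6 background. The libraries tdT1 and tdT2 held cells sorted for red fluorescence from male and female *Cspg4*-Cre;Ai9-tdTomato mice, in which the *Cspg4* promoter drives Cre in mural cells and some other cells. The WT library held cells of wild-type male mice and the TNF-Tg library cells of male TNF-Tg mice, which carry a human TNF transgene and develop arthritis. The labels give both an age of 9 months, and both were sorted on high light scatter and exclusion of a dead-cell dye and not on a reporter. With 1 library for WT and 1 for TNF-Tg, genotype, sort and sequencing run cannot be told apart, and no p-value was computed between them.

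Class II molecules are pairs of an alpha and a beta chain that carry peptides from the endosomes to the cell surface, where CD4 T cells read them. The invariant chain fills the groove of a newly made pair and guides it to the endosomes, H2-DM then exchanges the remaining fragment for a peptide, and H2-DO restrains H2-DM in B cells and some dendritic cells. Dendritic cells, B cells and many macrophages transcribe these genes under *Ciita*, a coactivator that acts through factors bound to a shared promoter module with an X box and a Y box, while most stromal cells transcribe them only under interferon gamma. C57BL/6 mice lack a working *H2-Ea* gene, so that *H2-Eb1* transcripts in them do not give a surface molecule.

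Of the members, 8 lie within 224.3 kb of chromosome 17, chr17:34092340-34316674 in GRCm38, and *Ciita* lies at chr16:10480059-10528418. The promoter module was looked for in the members with a promoter entry, and its sequence is shown where it was found in whole or in part. Promoter sequences of RefSeq on GRCm38.p6, covering 250 bases before to 50 bases after each gene start, were found for 7 members. The letters TGATTGG, which form the core of the Y box and contain the reverse complement of CCAAT, occurred on either strand in 6 of these 7 and in 7.82% of all 32851 promoters of that length. The letters GNAAC, part of the X box, stood 20 to 30 bases before TGATTGG on the same strand in 5 of 7 members and in 0.323% of all promoters. The letters were chosen after these sequences had been looked at, and a match is a description of the sequence only. Capitals mark GNAAC and TGATTGG, and each window is printed 5′ to 3′ on the strand of the gene.
H2-Aa, chr17:34287854-34287918, minus strand: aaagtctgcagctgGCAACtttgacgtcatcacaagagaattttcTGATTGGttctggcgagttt
H2-Eb1, chr17:34305761-34305825, plus strand: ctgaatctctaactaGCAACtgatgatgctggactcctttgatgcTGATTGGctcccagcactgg
H2-DMb1, chr17:34153083-34153147, plus strand: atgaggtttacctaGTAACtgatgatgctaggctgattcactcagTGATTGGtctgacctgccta
H2-DMb2, chr17:34145112-34145176, plus strand: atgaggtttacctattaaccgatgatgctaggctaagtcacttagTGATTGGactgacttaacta
H2-Oa, chr17:34092289-34092353, plus strand: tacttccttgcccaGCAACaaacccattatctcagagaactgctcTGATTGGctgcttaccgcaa
H2-Ob, chr17:34238801-34238865, plus strand: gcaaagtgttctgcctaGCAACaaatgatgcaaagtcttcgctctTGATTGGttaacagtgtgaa
The Y box letters began 45 bases before the RefSeq gene start in *H2-Oa*, 50 bases in *H2-Aa* and 92 bases in *H2-DMb2*, which was the member with TGATTGG and without GNAAC at this distance. *H2-DMa* has 2 promoter entries, and neither held TGATTGG.

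The 4 matrices held from 454 cells in tdT2 to 5488 cells in WT, with medians from 4932.5 to 12660 unique molecular identifiers (UMIs, each marking a captured mRNA molecule) per cell. Cells were clustered on genes other than the members, and clusters were named by marker genes, with "-like" added because markers alone define them. The classes used most were Cd209a dendritic cell-like cells (151 in WT and 255 in TNF-Tg), cDC1-like cells, which are cross-presenting dendritic cells (73 and 47), Ear2 phagocyte-like cells (307 and 24), M1-macrophage-like cells (501 and 333), M2-macrophage-like cells (1122 and 262) and inflammatory monocyte-like cells (68 and 494). The stromal classes were LMC-like (lymphatic muscle cell; 1407 and 523) and VSMC-like cells (vascular smooth muscle cell; 640 and 506), names that follow the marker genes of the study. Contractile genes of smooth muscle were mostly at or near 0, as *Acta2* had a UMI in 0.497% and *Myh11* in 0 of the 1407 LMC-like cells of WT and *Acta2* in 0.312% and *Myh11* in 0.156% of the 640 VSMC-like cells, whereas the mesenchymal gene *Pdgfra* had a UMI in 97.1% and 84.2%. *Des*, the muscle intermediate filament, was the exception, with a UMI in 31.4% of the LMC-like and 1.09% of the VSMC-like cells of WT, and in 25.4% of the LMC-like cells of tdT1, 4.35% of tdT2 and 23.1% of TNF-Tg. The names stand here for the marker genes (*Myoc* and *Pi16* against *Mgp* and *Gdf10*). Any pair of libraries shared from 0 to 5 cell barcodes. Levels are UMIs of a gene per 1000000 UMIs of the class in that library (CPM), their intervals are exact 95% Poisson intervals that cover counting error only, and a lower level in a class cannot be told apart from fewer expressing cells unless values per cell are given.

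The class II chains and the invariant chain were highest in Cd209a dendritic cell-like cells, except in TNF-Tg, lower in M2-macrophage-like and inflammatory monocyte-like cells, and far lower in stromal cells. The summed level of *H2-Aa*, *H2-Ab1*, *H2-Eb1* and *Cd74*, called the core here, was 65915 CPM (tdT1), 45806 (tdT2), 68119 (WT) and 30277 (TNF-Tg) in the Cd209a dendritic cell-like class. In M1-macrophage-like cells it was 47962 (tdT1), 43998 (tdT2), 40133 (WT) and 6680 (TNF-Tg). Ear2 phagocyte-like cells, a phagocyte class with *Retnla* and *Ear2*, had a core level of 41991 (tdT1), 33042 (tdT2), 38494 (WT) and 36230 (TNF-Tg). Their cell numbers in WT and TNF-Tg are close to those of the cluster that the study labelled Dendritic Cells 2. The 4 libraries were closest together in that class, and the ranges of the M1-macrophage-like and Ear2 phagocyte-like classes overlapped. In cDC1-like cells the core level was 41911 in WT and 38095 in TNF-Tg, with 8 cells at 49511 in tdT1 and 2 cells at 28672 in tdT2. M2-macrophage-like cells, which carry *Lyve1* and *Cd163*, had 13152 (tdT1), 22292 (tdT2), 12627 (WT) and 5907 (TNF-Tg). Inflammatory monocyte-like cells had 12101 (tdT1), 4911 (tdT2), 16590 (WT) and 664 (TNF-Tg), and were the class in which the libraries lay farthest apart among the phagocytes. The Cd209a dendritic cell-like class was the highest of the classes with 10 or more cells in tdT1, tdT2 and WT, while in TNF-Tg the cDC1-like and Ear2 phagocyte-like classes were above it. B cell-like cells were few, and the 18 of them in tdT1 had a core level of 21389 CPM.

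**Figure D1:**
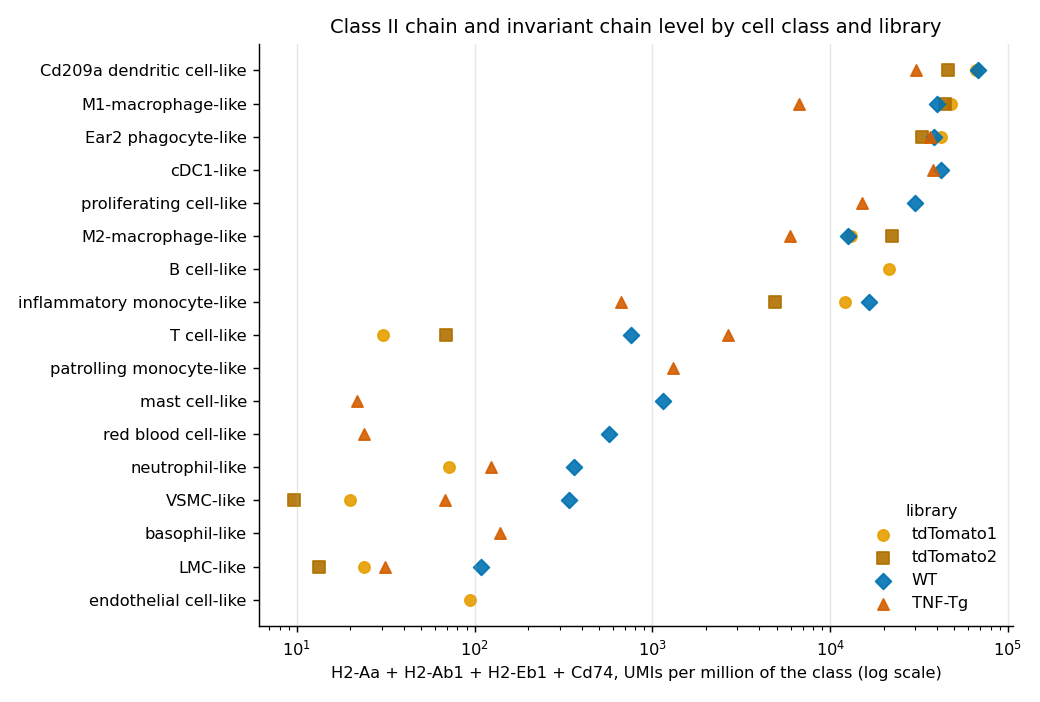
The plot shows the summed level of *H2-Aa*, *H2-Ab1*, *H2-Eb1* and *Cd74* in CPM on a log axis, with 1 row per cell class and 1 symbol per library (tdTomato1 and tdTomato2 are tdT1 and tdT2), for classes with 10 or more cells and a level above 0. The TNF-Tg triangle lies left of the WT diamond in the Cd209a dendritic cell-like, M1-macrophage-like, M2-macrophage-like and inflammatory monocyte-like rows, and among the other symbols in the Ear2 phagocyte-like row.

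*H2-Aa*, the alpha chain of the I-A molecule, was at 12898 CPM (tdT1), 7758 (tdT2), 12390 (WT) and 5329 (TNF-Tg) in Cd209a dendritic cell-like cells. In the M1-macrophage-like class it was at 10670, 9172, 8152 and 1226 in the same order of libraries. In inflammatory monocyte-like cells it was at 2387, 750, 3098 and 94.1. In all these classes TNF-Tg was the lowest library. *H2-Ab1*, the beta chain that pairs with it, was at 11972, 7700, 12647 and 5355 in Cd209a dendritic cell-like cells and at 2427, 601, 3070 and 75.2 in inflammatory monocyte-like cells. *H2-Eb1* was at 9157, 7770, 11131 and 5142 in Cd209a dendritic cell-like cells and at 1082, 431, 2505 and 54.3 in inflammatory monocyte-like cells. *Cd74* was at 31888, 22577, 31951 and 14451 in Cd209a dendritic cell-like cells and at 6206, 3129, 7916 and 441 in inflammatory monocyte-like cells. TNF-Tg was the lowest library for each chain and for the invariant chain in both classes, while tdT1 was above WT for *H2-Aa* and below it for the others in Cd209a dendritic cell-like cells.

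The core genes kept a narrow range of proportions to each other in the phagocyte classes. *Cd74* gave 46.9% of the core UMIs in Cd209a dendritic cell-like cells of WT and 47.7% in those of TNF-Tg. Its share was 44.2% and 48.7% in M1-macrophage-like cells and 52.1% and 52.3% in M2-macrophage-like cells. It stood apart in the inflammatory monocyte-like cells of TNF-Tg, at 66.3% against 47.7% in WT, where *H2-Eb1* gave 8.18% against 15.1%. In tdT1 and tdT2 the *Cd74* share of that class was 51.3% and 63.7%.

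To ask how the members differ between classes, UMIs were summed per class and library and tested with the quasi-likelihood test of edgeR over 12227 genes. The library was a block, and a Benjamini-Hochberg adjusted p under 0.01 was the call. The libraries stood as replicates although they differ in genotype and sort. The fit had no term for class differences that vary with genotype, so such variation enters the spread. A library entered with a class when it had 20 or more cells of it, which left 3 libraries for the Cd209a dendritic cell-like class, 4 for M2-macrophage-like cells, 2 for M1-macrophage-like cells and 3 for inflammatory monocyte-like cells. The members were not used to make the classes, but the classes were made from the same cells, so the p-values describe the spread between these libraries. All named classes with enough cells, stromal ones included but without proliferating cell-like cells, were fitted together with the same library effects. This spread is therefore shared over all classes of the fit.

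Against M2-macrophage-like cells, 6 of the 10 members were higher in Cd209a dendritic cell-like cells and 0 lower, where 12.7% of all genes were called higher and 12.6% lower. The calls were *Ciita* and all 5 genes of H2-DM and H2-DO. *H2-Oa* had a log2 fold change of 7.99 ± 0.65 (SE, edgeR adjusted p = 9.60e-12), *H2-DMb2* of 7.14 ± 0.54 (1.54e-11) and *H2-Ob* of 5.35 ± 0.49 (2.18e-10). In M2-macrophage-like cells *H2-Oa* had 0 UMIs in WT and 6 in TNF-Tg, *H2-DMb2* 10 and 3, and *H2-Ob* 36 and 0. All of them were at 0 there in tdT1 and tdT2, so the sizes of these changes rest on few UMIs in that class. *H2-DMb1* had 3.36 ± 0.53 (edgeR adjusted p = 4.84e-06) and *H2-DMa* 2.90 ± 0.45 (3.20e-06). *Ciita* had 3.05 ± 0.56 (edgeR adjusted p = 5.07e-05), and in the Wald test of DESeq2 it missed the threshold. The classical chains and *Cd74* had log2 fold changes from 1.97 to 2.45 with standard errors from 0.83 to 0.92, and their edgeR adjusted p-values from 0.0253 to 0.0651 missed the threshold. Without the filter on low counts these 4 genes passed it. Their standard errors rest on a spread shared over all classes of the fit and not on this contrast alone. The core level was 68119 against 12627 CPM in WT and 30277 against 5907 in TNF-Tg, so the missed threshold does not mean equal levels.

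Against inflammatory monocyte-like cells, 7 members were higher in Cd209a dendritic cell-like cells and 0 lower, where 3.31% of all genes were called higher and 3.39% lower. *H2-Ob* (5.72 ± 0.66), *H2-Oa* (5.37 ± 0.61) and *H2-DMb2* (4.78 ± 0.53) had the largest log2 fold changes, and their edgeR adjusted p-values ran from 1.22e-07 to 2.07e-07. These sizes rest on few UMIs in inflammatory monocyte-like cells. There *H2-Ob* had 2 in WT and 1 in TNF-Tg, *H2-Oa* 2 and 11, and *H2-DMb2* 5 and 9. *H2-Eb1* (3.76 ± 0.98), *Ciita* (2.87 ± 0.60), *H2-DMb1* (2.39 ± 0.56) and *H2-DMa* (1.94 ± 0.47) were also called, with edgeR adjusted p-values from 0.00108 to 0.00784. Each of these 4 calls was lost in DESeq2, without the TNF-Tg library, without the block and with classes set by marker gates on single cells. Without TNF-Tg their log2 fold changes were 3.32, 1.74, 1.82 and 1.70 in the same order. *H2-Eb1* (3.74) and *H2-DMa* (1.99) also lost the call without tdT2, and *H2-Eb1* (3.40) without tdT1. *H2-Aa*, *H2-Ab1* and *Cd74* had log2 fold changes of 3.44, 3.63 and 3.31 and missed the threshold.

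Between M1- and M2-macrophage-like cells, 1 member was called higher in the M1-macrophage-like class and 0 lower, where 2.27% and 2.36% of all genes were called. That gene was *H2-DMb2*, with a log2 fold change of 2.77 ± 0.62 and an edgeR adjusted p of 0.00328, and it rested on 40 UMIs in the M1-macrophage-like cells of WT and 13 in those of TNF-Tg. The call was lost under 5 of the alternatives, among them without WT (1.67) and without TNF-Tg (3.18). The core genes had log2 fold changes from -0.25 to 0.28 with standard errors from 0.84 to 1.02 in this fit. These values depend on library effects shared by all classes. The M2-macrophage-like sums of tdT1 and tdT2 also entered without an M1-macrophage-like sum. The values are therefore not the direct difference of the classes within WT or TNF-Tg. As CPM of the core, the M1-macrophage-like level was above the M2-macrophage-like level by 40133 to 12627 CPM in WT and by 6680 to 5907 in TNF-Tg.

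**Figure D2:**
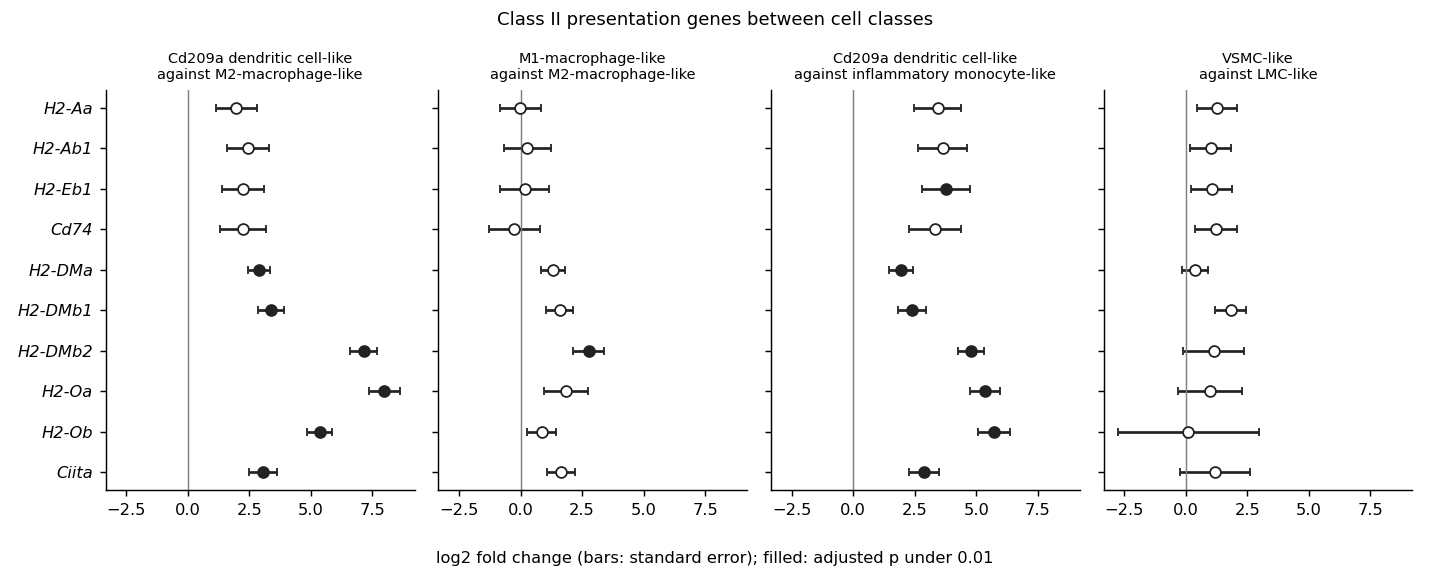
The plot shows the log2 fold change of each member in 4 comparisons of cell classes, with bars for the standard error and filled points for an edgeR adjusted p under 0.01. *H2-DMb2*, *H2-Oa* and *H2-Ob* lie farthest right in both comparisons of the Cd209a dendritic cell-like class, and the VSMC-like against LMC-like panel has no filled point.

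The genes of peptide editing separated into those found in most phagocytes and those found in few classes. *H2-DMa* was at 985 CPM (tdT1), 954 (tdT2), 1123 (WT) and 788 (TNF-Tg) in Cd209a dendritic cell-like cells, and at 802, 562, 562 and 295 in M1-macrophage-like cells. Its level in Ear2 phagocyte-like cells was 1195, 1497, 1160 and 919. *H2-DMb1*, a beta chain of the same molecule, was at 699.8, 849, 1044 and 977 in Cd209a dendritic cell-like cells and at 738, 714, 469.6 and 258 in M1-macrophage-like cells. For this gene the Cd209a dendritic cell-like level of TNF-Tg lay inside the range of the other libraries.

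*H2-DMb2*, the other beta chain of H2-DM, was at 49.8 CPM (tdT1), 139.6 (tdT2), 129 (WT) and 60.7 (TNF-Tg) in Cd209a dendritic cell-like cells. It was at 152, 191, 90.1 and 59.5 in Ear2 phagocyte-like cells and at 0.701 in the M2-macrophage-like cells of WT. *H2-Oa*, the alpha chain of H2-DO, was at 92.9, 11.6, 107 and 66.4 in Cd209a dendritic cell-like cells and at 99.9 in WT and 59.9 in TNF-Tg in cDC1-like cells. In Ear2 phagocyte-like cells it had 2 UMIs in the 307 cells of WT, or 0.349 CPM, although *H2-DMb2* had 516 UMIs there. *H2-Ob*, its partner chain, was higher in cDC1-like cells, at 201 in WT and 93.0 in TNF-Tg, than in Cd209a dendritic cell-like cells, at 72.2 and 30.3. The 18 B cell-like cells of tdT1 had 732 CPM of *H2-Ob*, 573 of *H2-DMb2* and 207 of *H2-Oa*, from 60, 47 and 17 UMIs, while *H2-DMb1* had 8 UMIs there. *H2-DMb1* and *H2-DMb2* are near copies, and no stretch of 50 bases was shared by the last 500 bases of the transcripts of any pair of members, so that reads of that length from the end of the transcript can be told apart.

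*Ciita* was at a low level and followed the core genes in part. It was at 169 CPM (tdT1), 128 (tdT2), 223 (WT) and 122 (TNF-Tg) in Cd209a dendritic cell-like cells. In M1-macrophage-like cells it was at 223, 86.5, 131 and 34.0, and in M2-macrophage-like cells at 70.8, 47.6, 25.9 and 15.4. In inflammatory monocyte-like cells it was at 159 (tdT1, 20 UMIs), 5.32 (tdT2, 1 UMI), 84.2 (WT, 64 UMIs) and 2.95 (TNF-Tg, 16 UMIs). TNF-Tg was below the other 3 libraries in each of these classes, with the low counts of tdT2 in the last of them. In cDC1-like cells *Ciita* was at 176 in WT and 164 in TNF-Tg. It did not follow the core in Ear2 phagocyte-like cells, at 150.5 in WT (862 UMIs) and 70.3 in TNF-Tg (26 UMIs in 24 cells). The core was at 38494 and 36230 there. With marker gates, alone or together with the clusters, no member was called at least 2-fold lower in that class. In M2-macrophage-like cells *Ciita* was highest in tdT1 and the core in tdT2.

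The TNF-Tg library was compared with the WT library class by class, and genotype, sort and sequencing run cannot be told apart in this comparison. Class II transcripts were lower in the TNF-Tg library in 4 phagocyte classes, most in inflammatory monocyte-like cells, and close to WT in cDC1-like and Ear2 phagocyte-like cells. The log2 ratio of the core level, TNF-Tg over WT, was -4.64 in inflammatory monocyte-like cells (exact 95% counting interval -4.70 to -4.59), -2.59 in M1-macrophage-like cells (-2.60 to -2.57), -1.17 in Cd209a dendritic cell-like cells (-1.18 to -1.16) and -1.10 in M2-macrophage-like cells (-1.12 to -1.07). The value in inflammatory monocyte-like cells depended on how the cells were chosen and was -2.97 with marker gates in place of the clusters. It was -0.14 in cDC1-like cells (-0.16 to -0.12) and -0.09 in Ear2 phagocyte-like cells (-0.11 to -0.06). The intervals cover counting error and not the difference between mice. As a reference for the spread between libraries, the TNF-Tg core level was below tdT1, tdT2 and WT in the 4 classes with the lower levels and within their range in Ear2 phagocyte-like cells. The tdT libraries were sorted and made differently, and the core levels of tdT1, tdT2 and WT themselves ranged from 4911 to 16590 CPM in inflammatory monocyte-like cells.

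A member was counted as lower when it had 20 or more UMIs over both libraries and a level at least 2-fold below WT. In inflammatory monocyte-like cells, 7 of the 7 members that passed the count were lower, against 6.58% of all genes. The same held for 7 of 9 in M1-macrophage-like cells (14.7% of all genes), 6 of 10 in Cd209a dendritic cell-like cells (7.52%) and 5 of 8 in M2-macrophage-like cells (5.42%). In cDC1-like cells it was 1 of 10 (9.70%), *H2-Ob*, and in Ear2 phagocyte-like cells 1 of 9 (12.0%), *Ciita*. At least 2-fold higher were 0 members in each of these 6 classes, where 6.43%, 6.53%, 6.41%, 5.43%, 6.05% and 5.39% of all genes were, in the same order. In other classes, 3 of 4 members were at least 2-fold lower in neutrophil-like cells (7.71% of all genes), 4 of 4 in red blood cell-like cells (66.9%) and 3 of 10 in proliferating cell-like cells (15.4%), and 0 were higher, against 8.60%, 2.11% and 5.30%. In T cell-like cells 5 of 6 were at least 2-fold higher (2.17% of all genes) and 0 lower (5.52%). In the 6 phagocyte classes the members under 20 UMIs were *H2-DMb2*, *H2-Oa* or *H2-Ob*. The median log2 ratio of all genes was -0.16 in M1-macrophage-like cells and between -0.06 and 0.06 in the other 5 phagocyte classes. A fixed list of 10 macrophage genes, such as *C1qa* and *Mrc1*, was counted alike. In M1-macrophage-like cells 7 of 10 were lower, and in Cd209a dendritic cell-like cells 6 of 9, with 1 higher. In inflammatory monocyte-like cells it was 5 of 9 and in M2-macrophage-like cells 1 of 10. Of 10 general leukocyte genes, 0 were lower in each of these classes. Except in M2-macrophage-like cells, lower levels were therefore not limited to the members.

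In inflammatory monocyte-like cells the chains were lower by 46.1-fold for *H2-Eb1*, 40.9-fold for *H2-Ab1* and 32.9-fold for *H2-Aa*. *Cd74* was 18.0-fold lower and *Ciita* 28.6-fold lower, while *H2-DMb1* was 6.15-fold and *H2-DMa* 3.52-fold lower. In M1-macrophage-like cells the core genes were lower by 5.46-fold (*Cd74*) to 6.65-fold (*H2-Aa*) and *Ciita* by 3.84-fold, while *H2-DMa* and *H2-DMb1* were lower by 1.91-fold and 1.82-fold. In both classes the differences of *H2-DMa* and *H2-DMb1* were the smallest among the members that passed the count. In Cd209a dendritic cell-like cells the core genes were lower by 2.17-fold (*H2-Eb1*) to 2.36-fold (*H2-Ab1*), *H2-DMa* by 1.42-fold and *H2-DMb1* by 1.07-fold. M2-macrophage-like cells did not show this order, with *H2-DMa* 2.49-fold, *H2-Aa* 2.26-fold and *H2-DMb1* 1.78-fold lower. *H2-Ob* had 36 UMIs in the M2-macrophage-like cells of WT and 0 in those of TNF-Tg, at least 2.63-fold lower when 0 is read as up to 3 counts over the class. *H2-DMb1* was the member with the highest ratio in cDC1-like cells, at 714 CPM in WT and 890 in TNF-Tg, a log2 ratio of 0.32 (0.17 to 0.46). In proportion to the core, *H2-DMa* was at 3.01 UMIs per 100 core UMIs in the inflammatory monocyte-like cells of WT and at 21.3 in those of TNF-Tg, and at 1.40 and 4.42 in M1-macrophage-like cells. The tdT1 and tdT2 values in inflammatory monocyte-like cells were 3.88 and 6.72.

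**Figure D3:**
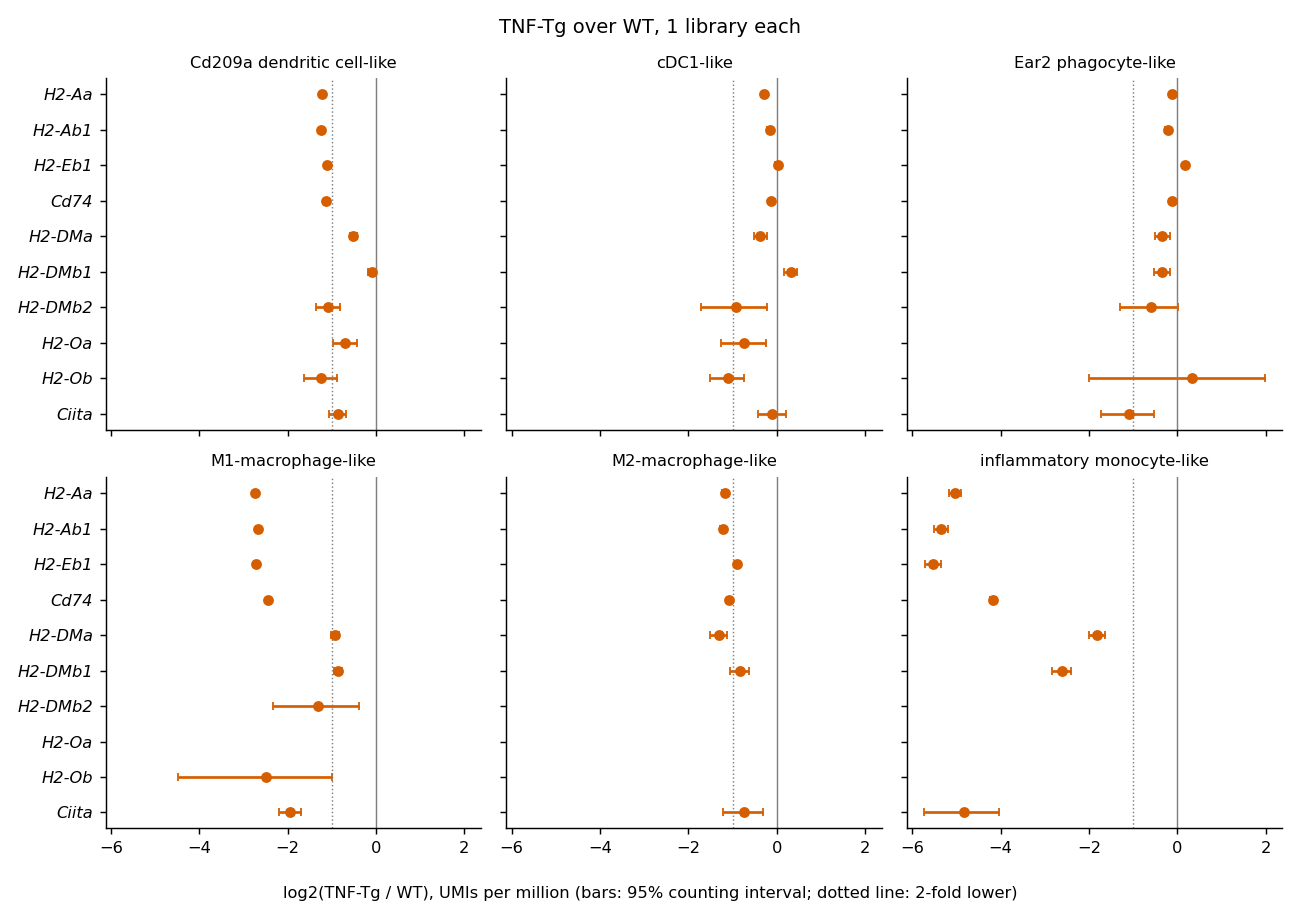
The plot shows the log2 ratio of TNF-Tg over WT for each member with 20 or more UMIs and a count above 0 in both libraries, in 6 phagocyte classes, with exact 95% counting intervals. *H2-DMa* and *H2-DMb1* lie to the right of the core genes in the M1-macrophage-like and inflammatory monocyte-like panels, and of the cDC1-like and Ear2 phagocyte-like points only *H2-Ob* in the former and *Ciita* in the latter lie left of the dotted 2-fold line.

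Values per cell show how the levels were spread over the cells. In M1-macrophage-like cells the median core level per cell was 40071 CPM in WT and 1721 in TNF-Tg, and the middle 50% of the cells ran from 26127 to 52982 and from 107.7 to 8431. To compare detection at equal depth, each cell was thinned to 3000 UMIs, and cells with fewer were left out. The intervals of these shares cover the sampling of cells within a library and not mice or libraries. After thinning, 473 of 493 M1-macrophage-like cells of WT held 10 or more core UMIs (95.9%, exact Clopper-Pearson interval 93.8 to 97.5) and 131 of 328 in TNF-Tg (39.9%, 34.6 to 45.5). In inflammatory monocyte-like cells 31 of 67 WT cells did so (46.3%, 34.0 to 58.9) and 22 of 486 TNF-Tg cells (4.53%, 2.86 to 6.77), against 6 of 12 cells in tdT1 and 7 of 24 in tdT2. The WT cells of that class were uneven, with a median core level of 2005 CPM and an upper quartile of 37224, so that the summed level of 16590 came from a part of the cells. In Cd209a dendritic cell-like cells 147 of 148 (WT) and 220 of 252 (TNF-Tg, 87.3%) held 10 or more, and the median level per cell was 66869 and 29185. In M2-macrophage-like cells 908 of 1111 (81.7%) and 128 of 250 (51.2%) did so. All 73 cDC1-like cells of WT and all 47 of TNF-Tg held 10 or more. As background, 1 of 234 neutrophil-like cells of WT and 0 of 121 of TNF-Tg held 10 or more, where 0 of 121 allows a share of up to 3.00% by the exact interval.

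**Figure D4:**
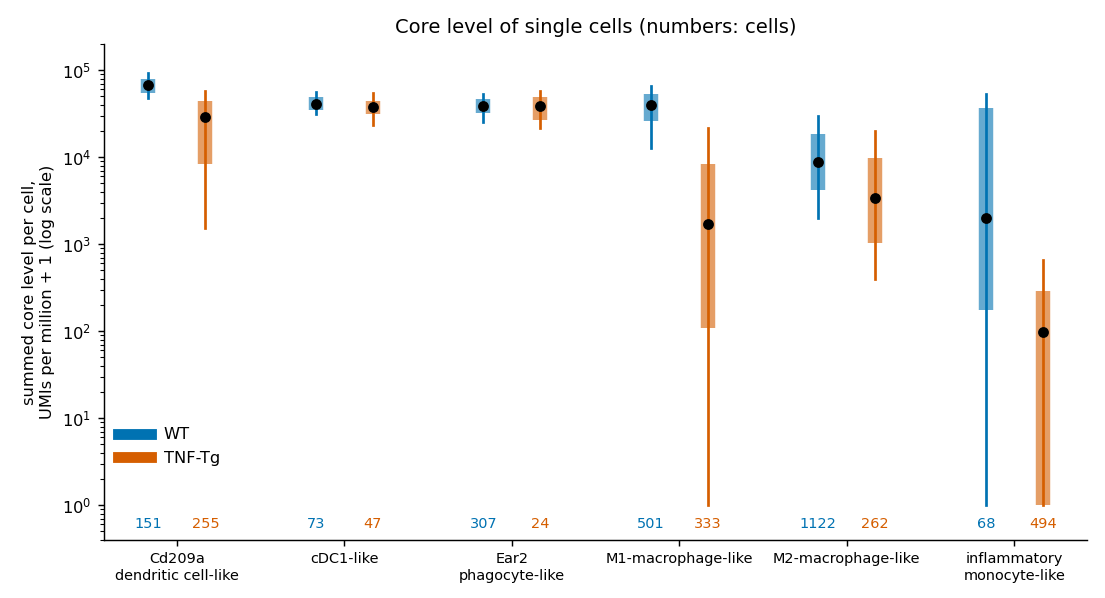
The plot shows the core level of single cells in CPM plus 1 on a log axis, for WT (blue) and TNF-Tg (orange) in 6 phagocyte classes, with the median as a point, the middle 50% as a thick bar, the 10th to 90th percentile as a line and the number of cells at the foot. The TNF-Tg medians of the M1-macrophage-like (1721) and inflammatory monocyte-like (97.2) classes lie far below the WT medians (40071 and 2005). The line of the WT inflammatory monocyte-like class spans the widest range.

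Markers of other classes moved with these differences. In M1-macrophage-like cells the summed level of the 8 M1-macrophage markers was 37485 CPM in WT and 6262 in TNF-Tg, with all 8 detected in both, and that of the 7 inflammatory monocyte markers was 1515 and 2940. A gate that assigns each cell by its own markers put 175 of the 333 TNF-Tg cells of this class (52.6%) and 19 of the 501 WT cells (3.79%) with the inflammatory monocytes. In the cells that passed the gate of their own class, 347 in WT and 142 in TNF-Tg, the core level was 38022 and 6637 CPM, a log2 ratio of -2.52, a restriction that also left out cells with other gates or with none. In Cd209a dendritic cell-like cells the dendritic cell markers summed to 3997 and 3318 CPM and the inflammatory monocyte markers to 1487 and 2906, and with the gate the core level was 69268 in 140 WT cells and 34850 in 163 TNF-Tg cells, a log2 ratio of -0.99. With that restriction the members at least 2-fold lower numbered 3 of 10, and with the marker gates alone in place of the clusters 1 of 10. In M2-macrophage-like cells the restriction gave -0.86 for the core and 1 of 7 members, and in inflammatory monocyte-like cells -5.13 for the core, whereas the marker gates alone gave -2.97 there. In cDC1-like cells the restriction turned the core ratio from -0.14 to 0.03. In these restricted or gated cells the share of all genes at least 2-fold lower was not taken. The member counts there therefore have no background beside them. The restriction to cells that agree between clusters and gates was chosen after the data had been seen, and the part of the other cell states in the ratios was not tested.

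To ask whether stromal cells held class II transcripts above the free RNA of their library, the core level was set against that in all leukocyte classes of the library. LMC-like cells had 23.7 CPM (tdT1), 13.3 (tdT2), 108 (WT) and 31.2 (TNF-Tg). VSMC-like cells had 9.59 (tdT2), 339.5 (WT) and 68.1 (TNF-Tg), and 38 core UMIs in the 198 cells of tdT1. As a share of the leukocyte level of the same library, LMC-like cells were at 0.0724%, 0.0702%, 0.403% and 0.326%, and VSMC-like cells at 0.0611%, 0.0508%, 1.27% and 0.711%. The same share was taken for 20 control genes of leukocytes and macrophages, which stromal cells should lack. In the LMC-like cells of WT all 20 controls had a higher share than the core, with a median of 0.715%, and in those of TNF-Tg 18 of 20 did. In VSMC-like cells 6 of 20 controls were above the core in WT and 18 of 20 in TNF-Tg. The control *Csf1r* was the highest in both stromal classes of TNF-Tg, at 1.95% in LMC-like and 6.50% in VSMC-like cells. In WT it was at 0.710% and 0.780%. Whether it marks only free RNA in the TNF-Tg stroma was not tested. In tdT1, 19 of 20 controls were above the core in LMC-like and 17 in VSMC-like cells, and in tdT2, with 7 and 5 core UMIs in all, the median control was at 0. The core therefore lay below 18 or more of the 20 controls in 3 of the 4 combinations of class and library with WT or TNF-Tg and among the upper controls in the VSMC-like cells of WT.

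Single cells carried much of the level in the VSMC-like class. In WT, 4 of the 640 VSMC-like cells held 50 or more core UMIs each and together 66.6% of the core UMIs of the class, and 2 of these 4 were predicted doublets. In TNF-Tg, 1 of 506 held 61.2% of them. Without cells of 50 or more, the core level in WT was 92.8 CPM in LMC-like, 115 in VSMC-like and 104 in red blood cell-like cells, which should lack class II transcripts, and in TNF-Tg it was 31.2, 26.5 and 23.9. This restriction uses the measured quantity itself and takes out any stromal cell with a high level, so it describes the remaining cells only. The TNF-Tg value was the lower in all 3 classes. Neutrophil-like cells had 316.5 and 124 CPM. Leukocytes as a whole had a core level of 26792 CPM in WT and 9585 in TNF-Tg. In stromal cells with no UMI of 10 leukocyte control genes the level was 91.6 in LMC-like and 94.0 in VSMC-like cells of WT and 27.5 and 22.0 in those of TNF-Tg.

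The genes with low counts in leukocytes were nearly undetected in stroma. *Ciita* had 5 UMIs in the 1407 LMC-like cells and 6 in the 640 VSMC-like cells of WT, and 2 and 0 in those of TNF-Tg. *H2-DMb2* had 0 UMIs in both stromal classes of WT. The share of LMC-like cells with a *Cd74* UMI was 7.20% (tdT1), 1.09% (tdT2), 48.2% (WT) and 14.9% (TNF-Tg), where 36.2% of the neutrophil-like cells of WT and 21.5% of those of TNF-Tg had such a UMI. The median depth was 16237 and 12382 UMIs per cell in the LMC-like cells of WT and TNF-Tg and 3517 and 3123.5 in the neutrophil-like cells. Among the members that passed the count in LMC-like cells, *H2-DMa* was the exception to the lower levels in TNF-Tg, with 2.47 CPM from 58 UMIs in WT and 4.28 from 31 UMIs in TNF-Tg, and its log2 ratio of 0.79 (0.12 to 1.45) turned to -0.18 without predicted doublets. Between VSMC-like and LMC-like cells, tested over 4 libraries, 0 of 10 members were called by edgeR, where 3.70% of all genes were called higher and 3.79% lower. *H2-DMb1* was the member with an unadjusted p under 0.05, at a log2 fold change of 1.82 ± 0.64 and an edgeR adjusted p of 0.0628, and DESeq2 called 0 of 10 as well. Without TNF-Tg it passed the threshold of edgeR at 2.10. Of the members that passed the count, 4 of 6 in LMC-like cells (5.54% of all genes) and 5 of 6 in VSMC-like cells (12.0%) were at least 2-fold lower in TNF-Tg, and 0 were higher, against 4.22% and 4.20% of all genes. The median log2 ratio of all genes was -0.03 in LMC-like and -0.20 in VSMC-like cells. Of the 10 macrophage controls, 8 in LMC-like and 5 in VSMC-like cells were also at least 2-fold lower, and 0 and 1 were higher. Of the 10 leukocyte controls, 1 and 0 were lower, and 1 and 2 were higher. Whether the lower levels of the members differ from those of free RNA was not tested.

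**Figure D5:**
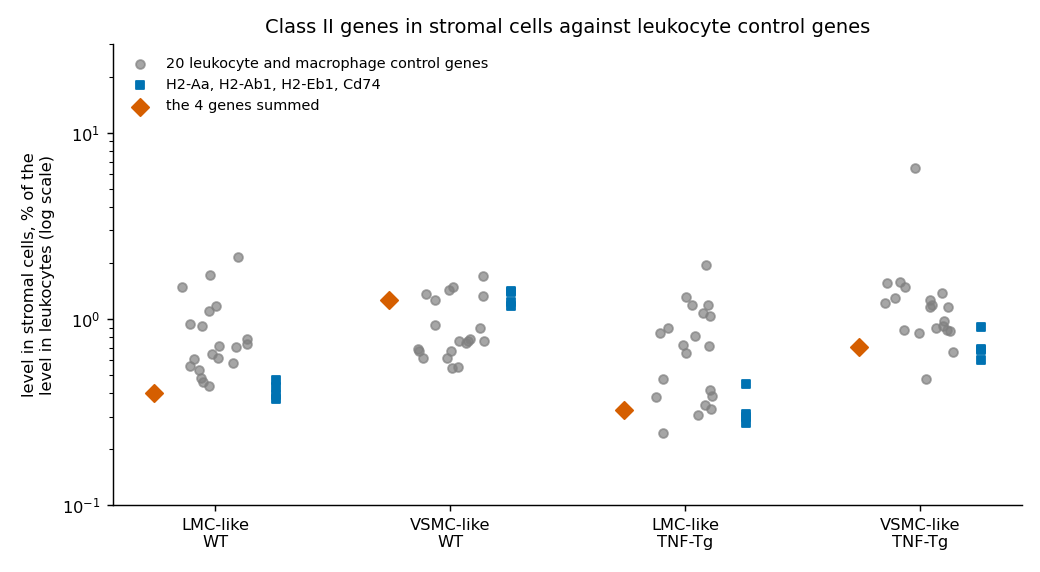
The plot shows the level of a gene in stromal cells as a percent of its level in the leukocytes of the same library, on a log axis, for 20 leukocyte and macrophage control genes (grey), the 4 core genes (squares) and their sum (diamonds) in LMC-like and VSMC-like cells of WT and TNF-Tg. The diamond lies below all grey points in the LMC-like cells of WT (0.403%) and among the upper ones in the VSMC-like cells of WT (1.27%).

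Other genes of the pathway were counted from fixed lists. Of 7 factors that bind the class II promoter module (*Rfx5*, *Rfxap*, *Rfxank*, *Nfya*, *Nfyb*, *Nfyc* and *Creb1*), 0 were at least 2-fold lower in TNF-Tg in the Cd209a dendritic cell-like, M1-macrophage-like, M2-macrophage-like and inflammatory monocyte-like classes. Among all genes 5.42% to 14.7% were, and for 7 genes a count of 0 is near that share. Their median log2 ratios in these classes lay between -0.23 and 0.24, and *Ciita* was at 0.0350 to 0.594 times WT there. In Ear2 phagocyte-like cells 2 of the 7 factors were at least 2-fold lower (12.0% of all genes). In cDC1-like cells 1 of the 5 that passed the count was (9.70%). In the class I pathway, 5 of 9 genes were at least 2-fold lower in M1-macrophage-like cells, against 14.7% of all genes, with *H2-K1* at a log2 ratio of -1.79 as the lowest and *Psmb8*, an immunoproteasome subunit, at 0.25 as the highest. In each of the Cd209a dendritic cell-like, M2-macrophage-like and inflammatory monocyte-like classes 1 of 9 was, against 5.42% to 7.52% of all genes. Among the proteases and turnover genes of class II, *Cd83*, which limits ubiquitination of class II, was the lowest among M1-macrophage-like cells, with 63.2 CPM (WT) and 2.23 (TNF-Tg), while *Ctss*, the cathepsin that trims the invariant chain, was at 1677 and 1819. Between Cd209a dendritic cell-like and M2-macrophage-like cells, 4 of these 7 genes were called lower by edgeR, against 12.6% of all genes. They were *Lgmn*, *Ctsd*, *Ctsb* and *Ctsl*, with log2 fold changes from -4.46 to -3.36. Of the 10 macrophage control genes, 9 were called lower in this contrast too. *Ctss* had 0.78 ± 0.44 there (edgeR adjusted p = 0.185). Of the 9 class I genes, 3 were called higher by edgeR in the same contrast and 0 lower, against 12.7% and 12.6% of all genes. The median log2 fold change of the 9 was 0.06. The immunoproteasome gene *Psmb8* had the largest, at 2.06 ± 0.31 (edgeR adjusted p = 2.27e-06).

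The genes whose levels followed the core most closely over 27 sums of a class in WT or TNF-Tg, by Pearson's r of log2(CPM + 1), were *Shtn1* (0.932), *Plekho1* (0.929), *Zdhhc23* (0.926), *Rtl5* (0.921) and *Batf3* (0.920), followed by *Clec4b1*, *Kmo*, *Cysltr1*, *Ly86* and *Fgd2* (0.919 to 0.893). Among the members outside the core, r was 0.968 for *H2-DMb1*, 0.942 for *Ciita*, 0.926 for *H2-DMa* and 0.849 for *H2-DMb2*, and lower for *H2-Ob* (0.674) and *H2-Oa* (0.583). The sums share libraries and depth, and the values are descriptions.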

How the data were processed

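Gene by cell matrices of UMI counts, 1 per library, were used as deposited; the authors made them with Cell Ranger (3.1.0 in the matrix header of tdT1 and 6.0.1 in the others) on mm10 and used Seurat 4.0.3, per the study's processing notes, and tdT1 was sequenced on another instrument and sorted with a narrower nozzle. The matrices list 31053 genes for tdT1 and 32287 for the others, and the 30406 shared genes were used. All deposited barcodes were kept. Cells were integrated and clustered in Seurat 5.3.0 (R 4.3.3; 30 dimensions, resolution 0.5, 1957 variable genes without the members and the listed pathway genes), which gave 23 clusters. A cluster was named when 3 or more of a type's markers were among its top 50 genes, with ties decided by the top 10 genes. It stayed unnamed where the tie held, where over 50% of its cells were predicted doublets, where keratin genes led it, or where its cells were shallow for their library and its top 10 genes held no marker of that type. Predicted doublets numbered from 1 in tdT2 to 138 in WT and were kept, with their removal as an alternative, and from 7.58% to 25.2% of the cells of a library stayed unnamed. The naming rules were settled after the clusters had been looked at. The members and lists were chosen with earlier results of these data known.

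Class contrasts used edgeR 4.0.16 (limma 3.58.1) on UMI counts summed per class and library with 20 or more cells, TMM normalization and the library as a block, with Benjamini-Hochberg adjustment over 12227 genes and a threshold of 0.01. Proliferating cell-like cells were left out of the fit. Standard errors were computed as the absolute log2 fold change over the square root of the F statistic. DESeq2 1.42.0 was an alternative. The script was tested on simulated data. The p-values cover the spread between libraries, each of 3 pooled mice, as shared over all classes of the fit. Ratios of TNF-Tg over WT are ratios of CPM with exact conditional binomial intervals. Calls of 2-fold differences and medians over genes used features with 20 or more UMIs over both libraries. For these calls and medians a small constant was added to each count before the ratio was taken. Cells were thinned to 3000 UMIs with a fixed seed. Library totals ran from 2357031 to 68773605 UMIs, and the precision of a level follows from its UMI count. All 10 members were named, and other listed genes where they had the largest or smallest ratio in a class or the largest difference between classes. The 10 genes most like the core were taken by Pearson's r among genes with 100 or more UMIs. Python 3.11.15, numpy 2.4.6, pandas 2.3.3, scipy 1.17.1, scanpy 1.11.5 and matplotlib 3.10.9 were used. Alternatives changed the normalization, the filter on low counts, the libraries, the block, the doublets, cells of low quality, the cell classes (marker gates, or WT and TNF-Tg integrated alone) and the averaging over cells. Columns of the files hold no comparison made by the authors. Sequences and coordinates of *Cd74* are not shown.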

Additional observations from a re-analysis of the deposited data

Results flagged for a closer look

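The ratio of TNF-Tg over WT in T cell-like cells stood against the other classes: the core level had a log2 ratio of 1.80, opposite in sign to the 11 other named classes with a ratio, and the difference between classes was not tested. Of the members that passed the count, 5 of 6 were at least 2-fold higher in TNF-Tg, against 2.17% of all genes. In TNF-Tg, 4 of the 100 T cell-like cells held 50 or more core UMIs each and 97.7% of the 1665 core UMIs of the class, and in WT 1 of 78 cells held 76.3% of 523. The other cells had 66.4 CPM in TNF-Tg and 185 in WT. None of the 4 cells was a predicted doublet. By the marker gates, 1 T cell-like cell of TNF-Tg went with the Cd209a dendritic cells, and it held 435 core UMIs. The 4 cells without a gate held 425 and the 65 cells gated as T cells 794. Whether such cells belong to the class was not tested.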

How the results depend on the processing

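No paired analysis was possible because the labels give WT and TNF-Tg 1 library each with no number that ties them, and the class contrasts already hold the library as a block. Genes called numbered 3103 (Cd209a dendritic cell-like against M2-macrophage-like), 565 (M1- against M2-macrophage-like), 820 (Cd209a dendritic cell-like against inflammatory monocyte-like) and 915 (VSMC-like against LMC-like), and without the library block 1743, 163, 410 and 413. Leaving out 1 library gave 1628 to 2941 in the first contrast (1628 without WT and 1854 without TNF-Tg), 197 to 451 in the M1 to M2 contrast (197 without TNF-Tg), 394 to 674 in the monocyte contrast (496 without WT, 394 without TNF-Tg) and 530 to 732 in the stromal contrast (530 without WT, 550 without tdT1). Where only 1 library of a class was left, it was assumed to vary like the others. The M1 to M2 contrast gave 858 calls without the filter on low counts and 125 with marker gates, and the stromal contrast gave 501 in DESeq2. Higher and lower calls of Cd209a dendritic cell-like against M2-macrophage-like cells were 1557 and 1546, but 853 and 2798 with DESeq2's size factors and 772 and 2833 in its Wald test. For M1- against M2-macrophage-like cells they were 277 and 288, 178 and 376, and 122 and 260.

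With marker gates the core log2 ratio of TNF-Tg over WT was -0.94 in Cd209a dendritic cell-like, -2.32 in M1-macrophage-like, -1.01 in M2-macrophage-like, -2.97 in inflammatory monocyte-like, -0.07 in cDC1-like, -1.41 in LMC-like and -5.39 in VSMC-like cells. In cells that passed both cluster and gate it was -0.99, -2.52, -0.86 and -5.13 in the first 4 of these, -0.13 in Ear2 phagocyte-like cells and 0.03 in cDC1-like cells, a reversal. With WT and TNF-Tg integrated alone it was -1.11 in Cd209a dendritic cell-like, -0.03 in Ear2 phagocyte-like, -2.06 in LMC-like and -1.93 in VSMC-like cells. As a mean over cells it was -1.20, -0.06, -2.47, -0.78 and -2.12 in Cd209a dendritic cell-like, Ear2 phagocyte-like, M1-macrophage-like, M2-macrophage-like and VSMC-like cells. Without predicted doublets it was -4.74 in inflammatory monocyte-like and -2.11 in VSMC-like cells. The members at least 2-fold lower numbered 1 with gates and 3 with both in Cd209a dendritic cell-like cells, 0 and 0 in Ear2 phagocyte-like cells and 1 with both in M2-macrophage-like cells. The share of all genes was not taken under these settings, so these counts have no background beside them.

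The core level in stroma as a percent of leukocytes moved as follows. With gates it was 0.986 (TNF-Tg), 0.839 (WT) and 0.362 (tdT1) in LMC-like cells and 0.272, 3.66 and 0.119 in VSMC-like cells. Without doublets it was 0.371 in LMC-like and 1.06 in VSMC-like cells of WT. In stromal cells with no leukocyte control UMI it was 0.342 in the LMC-like cells of WT, 0.351 in the VSMC-like cells of WT and 0.229 in those of TNF-Tg. Without cells of low quality it was 0.0547 in LMC-like and 0.0412 in VSMC-like cells of tdT1.

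Of 400 log2 fold changes of members under alternatives, 23 turned sign, all from values that were not called. In the M1 to M2 contrast *Cd74* was at 0.46 without tdT2 and 0.89 without the block, and *H2-Aa* at 0.14 without tdT1, 0.62 without tdT2, 0.03 without TNF-Tg, 0.96 without the block, 0.05 without doublets and 0.04 with gates. There *H2-Ab1* was at -0.62 in the Wald test, -0.13 with DESeq2's size factors and -0.54 without WT, *H2-Eb1* at -0.73, -0.24 and -0.90, and *H2-Oa* at -0.80 without WT and -1.31 with gates. In the stromal contrast, without WT, *Ciita* was at -1.39, *H2-DMa* at -0.53, *H2-Oa* at -0.95 and *H2-Ob* at -0.74, *H2-DMb2* was at -0.70 without tdT1, and *H2-Ob* was at -0.06 without the block and -1.31 without doublets. The log2 ratio of *H2-DMa* in LMC-like cells was -0.18 without doublets and with WT and TNF-Tg integrated alone. With each library left out in turn, the M1 to M2 values ran from -1.45 to 0.46 for *Cd74*, -0.97 to 0.62 for *H2-Aa*, -0.54 to 0.87 for *H2-Ab1*, -0.90 to 0.84 for *H2-Eb1* and -0.80 to 5.50 for *H2-Oa*, and the stromal values from -1.39 to 1.90 for *Ciita*, -0.53 to 1.08 for *H2-DMa*, -0.70 to 1.98 for *H2-DMb2* and -0.95 to 1.57 for *H2-Oa*. The causes were not tested. Of the core ratios under alternatives, 22 of 46 stayed within their counting interval. *H2-Oa*, *H2-Ob* and *H2-DMb2* rest on few UMIs outside dendritic cell-like, Ear2 phagocyte-like and B cell-like cells, and classes under 20 cells in a tdT library gave levels only.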

Other observations

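With WT and TNF-Tg integrated alone, 16 cells with markers of mature dendritic cells, such as *Ccr7* and *Fscn1*, formed a cluster, 2 from WT and 14 from TNF-Tg. In the 14 TNF-Tg cells *H2-Aa* was at 6495 CPM, *H2-Ab1* at 3901, *H2-Eb1* at 6909 and *Cd74* at 16515, while *H2-DMa* was at 179.8 and *H2-DMb1* at 43.6, below the 788 and 977 CPM in the Cd209a dendritic cell-like cells of TNF-Tg. *H2-DMb2* was at 218 there, from 40 UMIs, and *Ciita* at 65.4, from 12 UMIs. The difference was not tested, as WT held 2 such cells.
The 191 patrolling monocyte-like cells of TNF-Tg, which carry *Treml4* and *Spn*, had a core level of 1302 CPM, and *Ciita* was at 4.58. *Irf8*, a factor of dendritic cell development, was at 12.8 CPM in the Cd209a dendritic cell-like cells of WT and 123 in those of TNF-Tg. Of the 255 TNF-Tg cells of this class, 40 (15.7%) were gated as inflammatory monocytes, and their part in the *Irf8* level was not tested. *Ifng*, the main inducer of *Ciita* in stroma, had 0 UMIs in the Cd209a dendritic cell-like, macrophage-like and inflammatory monocyte-like classes, and 31 UMIs in the T cell-like cells of WT and 39 in those of TNF-Tg. The T cell-like class also held cells that the marker gates put with natural killer cells, 17 of 78 in WT and 28 of 100 in TNF-Tg. Which of its cells held the *Ifng* UMIs was not tested.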
